A study of Mus musculus with 6 samples.

Results

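Lysosomes break down proteins, glycans and lipids in an acidic lumen. The acid comes from the vacuolar H+-ATPase (V-ATPase), a rotary pump with a cytosolic V1 part that splits ATP and a membrane V0 part that carries the protons. The digestion is done by cathepsins and other proteases, glycosidases, sulfatases and lipid hydrolases, and the genes of pump and enzymes are switched on together by the transcription factors Tfeb, Tfe3 and Mitf. These factors are held in the cytosol when the kinase complex mTORC1, which sits on the lysosomal surface, is active. Ddit4 encodes a stress-induced inhibitor of mTORC1, so the lysosomal genes bear on what a leukemia without Ddit4 looks like. Here 45 such genes were followed in RNA-seq libraries from mouse leukemia cells. They were taken by gene symbol from a list of lysosomal functions, and all 45 were found among the 55421 genes of the deposited count table and passed the filter on low counts, which left 18375 genes. They comprise 4 regulators, 6 genes of the lysosomal membrane and of lipid egress, 12 proteases, 9 glycosidases and sulfatases, 3 genes of lipid hydrolysis and 11 genes of the V-ATPase.

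The leukemias were driven by AML1-ETO9a (AE9a), a truncated form of the AML1-ETO fusion protein, brought by retrovirus into c-Kit+ hematopoietic stem and progenitor cells of C57BL/6 mice. The donors had both Ddit4 alleles (3 libraries, AE9a-Ddit4+/+) or were Ddit4 knockout mice (3 libraries, AE9a-Ddit4-/-). GFP+ cells had been transplanted into irradiated recipients, whose own cells keep Ddit4, and leukemia cells from bone marrow were sequenced. The labels leave unsaid whether 1 mouse or several gave the libraries of a group. They give no treatment, time point or age that differs between the groups. The study states n = 3 in each group for these cells. It reports leukemia in fewer primary recipients of AE9a-Ddit4-/- than of AE9a-Ddit4+/+ cells. How many primary leukemias gave the libraries is not stated, and AE9a-Ddit4-/- libraries may share 1. The tests below thus measure the spread between these libraries, which need not be that between independent leukemias.

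Library totals ran from 62141558 to 72717681 counts, and mitochondrial genes took 5.03 to 7.90% of counts in the AE9a-Ddit4+/+ and 11.3 to 16.4% in the AE9a-Ddit4-/- libraries. The targeted gene Ddit4 was read at 161 to 341 CPM (counts scaled to a common library total) in AE9a-Ddit4+/+ and at 77.6 to 85.8 CPM in AE9a-Ddit4-/- cells, a difference of -1.56 on the log2 scale (SE 0.28, edgeR quasi-likelihood test, Benjamini-Hochberg adjusted p = 0.00635). Which part of the gene was deleted is not known here. By western blot, the study reported a complete lack of DDIT4 protein in AE9a-Ddit4-/- leukemia cells. The Y-linked genes Ddx3y, Kdm5d, Uty and Eif2s3y were read in the AE9a-Ddit4-/- libraries at 20.5 to 147 CPM and were at or below 0.0791 CPM in the AE9a-Ddit4+/+ libraries, and Xist was lower in AE9a-Ddit4-/- cells, so that genotype and sex cannot be told apart. The groups also differed in lineage markers, beside 19.4% of all genes tested that were higher and 10.7% that were lower in AE9a-Ddit4-/- cells. Of 14 tested markers of erythroid cells, 12 were lower in AE9a-Ddit4-/- cells, and their summed level was 7806 to 16479 CPM in AE9a-Ddit4+/+ and 509 to 1065 CPM in the other libraries. Of 12 neutrophil markers, 5 were lower (summed level 7076 to 11363 against 1563 to 4893 CPM). Higher in AE9a-Ddit4-/- cells were 4 of 7 tested mast cell and basophil markers (257 to 291 against 1176 to 1846 CPM), 6 of 7 tested B cell markers (1.05 to 4.90 against 64.6 to 128 CPM) and 3 of 6 tested dendritic cell markers (3.0 to 12.3 against 33.3 to 37.3 CPM). Of 6 genes listed for leukemia cells, 4 (Ptprc, Kit, Cd34 and Runx1t1) were higher and 2, Spi1 and Cebpa, did not pass the test (log2 fold changes -0.56 and 0.77). That list does not measure the share of leukemia cells in a library. The stem and progenitor markers Kit (14.6 to 31.6 against 304 to 508 CPM) and Cd34 (2.26 to 9.82 against 493 to 558 CPM), both on that list, were low in the AE9a-Ddit4+/+ libraries, which carry the same label of leukemia cells. The study describes its AE9a leukemia model as negative for lineage markers and positive for c-Kit. The part of these cell types in the levels of the lysosomal genes was not tested. In bulk RNA, a change in the number of cells of a type and a change in RNA per cell cannot be told apart.

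Between the genotypes 12 of the 45 lysosomal genes differed, in both directions. Of the 45 genes, 9 were higher and 3 lower in AE9a-Ddit4-/- than in AE9a-Ddit4+/+ cells at an adjusted p below 0.05. The share called was 26.7%, against 30.1% of all genes tested. By direction, 20.0% of the 45 genes were higher against 19.4% of all genes tested, and 6.67% were lower against 10.7%. The median log2 fold change was 0.26 for the 45 genes, 0.04 for all genes tested and -0.17 for the 8214 genes with an average log2 CPM above 4, of which 32.1% were called (15.1% higher, 17.0% lower). The set thus held no more called genes than the table as a whole. The groups did not overlap in 21 of the 45 genes (15 higher, 6 lower in AE9a-Ddit4-/-), which is 46.7% against 50.1% of all genes tested.

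**Figure D1:**
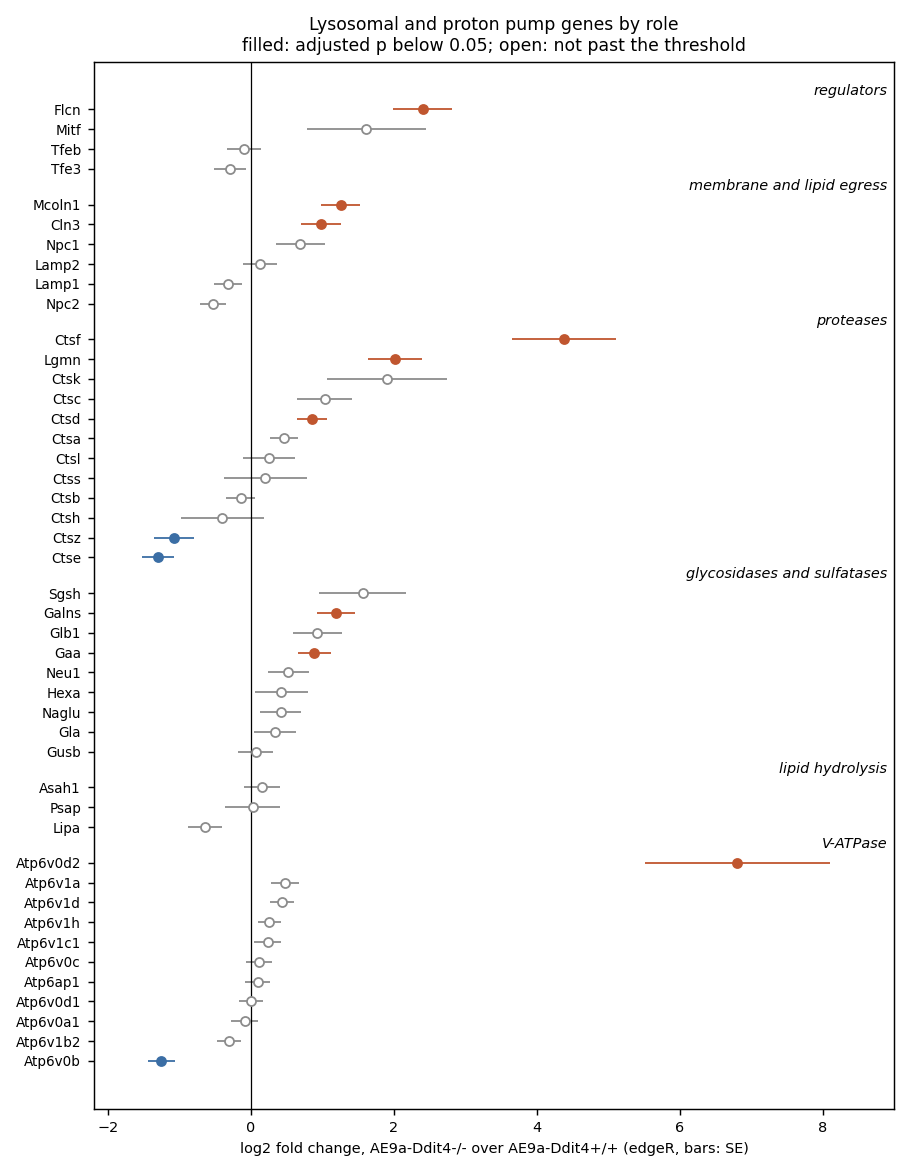
Log2 fold change of AE9a-Ddit4-/- over AE9a-Ddit4+/+ (x axis, edgeR estimate with its standard error) for each of the 45 genes, grouped by role. Filled points are past an adjusted p of 0.05. The 9 genes higher in AE9a-Ddit4-/- come from 5 of the 6 role groups, the 3 lower ones are Ctsz, Ctse and Atp6v0b, and most V-ATPase genes lie near 0.

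Among the regulators, the transcription factors did not pass the test and Flcn did. Flcn (folliculin, ENSMUSG00000032633, minus strand of chromosome 11, 59791408 to 59810016, GRCm38) encodes the GTPase-activating protein for RagC and RagD that lets mTORC1 hold Tfeb and Tfe3 in the cytosol. Libraries 1, 2 and 3 of AE9a-Ddit4+/+ had 52.2, 33.9 and 45.9 CPM, and libraries 1, 2 and 3 of AE9a-Ddit4-/- had 385, 176 and 137 CPM. All 3 AE9a-Ddit4-/- libraries lay above all 3 AE9a-Ddit4+/+ libraries, and library 1 stood highest. The change on the log2 scale was 2.40 (SE 0.41, edgeR adjusted p = 0.00521), a 5.29-fold higher level. Tfeb itself was read at 19.0 to 28.1 CPM in AE9a-Ddit4+/+ and 20.2 to 22.1 CPM in AE9a-Ddit4-/- cells (log2 fold change -0.10, SE 0.24). Tfe3 was at 31.8 to 48.3 against 31.6 to 37.3 CPM (log2 fold change -0.30, SE 0.22). Mitf was low, with 0.823, 3.15 and 0.928 CPM against 7.10, 1.05 and 6.88 CPM, and the groups overlapped through AE9a-Ddit4-/- library 2 (log2 fold change 1.61, SE 0.83). With edgeR adjusted p values of 0.789 for Tfeb, 0.356 for Tfe3 and 0.183 for Mitf, no difference in these 3 genes was shown.

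The genes around Flcn were examined to see whether the whole region moved. Of the 6 genes tested within 100 kb, Pld6, which lies on the side of the gene's end, was also higher, at 0.309 to 0.368 CPM against 1.41 to 2.45 CPM (log2 fold change 2.38, SE 0.49, edgeR adjusted p = 0.00974). The other 5 did not pass the test. Among these were Cops3 and Mprip, both read above Flcn in AE9a-Ddit4+/+ cells (log2 fold changes 0.32 and 0.49, edgeR adjusted p = 0.361 and 0.125), and Nt5m (log2 fold change -0.24, edgeR adjusted p = 0.608). Flcn binds its partners Fnip1 and Fnip2, which did not pass the test either (log2 fold changes 0.20 and -0.55, edgeR adjusted p = 0.626 and 0.218).

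Tfeb, Tfe3 and Mitf bind the E-box CACGTG, which is the core of the longer CLEAR motif found at lysosomal genes. The letters CACGTG, which read the same on both strands, were searched in RefSeq promoter windows (GRCm38.p6) of 250 bases before to 50 bases after a gene's start. Of the 45 genes, 35 had a window in the table. CACGTG was present in 16 of these 35 genes (45.7%), against 8.09% of the 27025 genes in the table. The extended form TCACGTGA, each of whose matches also counts as a CACGTG match, was present in 7 of 35 (20.0%) against 1.12%, and the CLEAR motif, which has a G before and a C after that form, in 1 of 35, Cln3, against 0.37%. CACGTG was found in 6 of the 7 higher genes with a window, in 1 of the 2 lower genes and in 9 of the 26 genes that did not pass the test. Genes of all 3 kinds thus held it, and a match in this window is a match of letters and not a site known to be bound. Flcn, the 7th higher gene with a window, held none. For Cln3 and Lgmn the matches lie in the window of a second start inside the gene, and the other window held none. At that Lgmn start, 0 GENCODE transcripts had the window's bases near their own start.

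A selection of the stretches around these matches is shown, 30 bases each and on the strand of the gene, so that matches in the 6 higher genes can be read beside those in a lower gene and in genes that did not pass the test. The capitals mark CACGTG, and these 6 letters are what the stretches have in common. Mcoln1, Ctsd, Cln3, Lgmn, Gaa and Ctsf were higher in AE9a-Ddit4-/- cells, Atp6v0b was lower, and Atp6v0d1 and Lamp1 are 2 of the 9 genes with a match that did not pass the test. A second Ctsd match lies too near the edge of its window for a stretch of this length, and of the Lamp1 matches the one farthest from the start is shown.
Mcoln1 at chr8:3500436-3500465, plus strand: ggtcgcgcttgtCACGTGttcagttcaggc
Mcoln1 at chr8:3500462-3500491, plus strand: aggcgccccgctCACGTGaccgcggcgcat
Ctsd at chr7:142387908-142387937, minus strand: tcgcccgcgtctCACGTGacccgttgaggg
Cln3 at chr7:126583368-126583397, minus strand: gcaaccctcaagCACGTGatggaaggctca
Cln3 at chr7:126583340-126583369, minus strand: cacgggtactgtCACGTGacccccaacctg
Lgmn at chr12:102439124-102439153, minus strand: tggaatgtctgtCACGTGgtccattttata
Gaa at chr11:119267811-119267840, plus strand: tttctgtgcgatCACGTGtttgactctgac
Ctsf at chr19:4855074-4855103, plus strand: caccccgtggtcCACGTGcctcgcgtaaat
Atp6v0b at chr4:117887348-117887377, minus strand: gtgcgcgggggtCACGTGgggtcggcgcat
Atp6v0b at chr4:117887330-117887359, minus strand: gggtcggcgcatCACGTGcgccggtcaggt
Atp6v0d1 at chr8:105566050-105566079, minus strand: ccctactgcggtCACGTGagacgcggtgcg
Lamp1 at chr8:13159088-13159117, plus strand: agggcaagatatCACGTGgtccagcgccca
The second Cln3 stretch holds the full CLEAR letters, and the second Mcoln1 stretch, the Ctsd stretch and the Atp6v0d1 stretch hold the 8-base form. Lamp1, which encodes the most abundant membrane glycoprotein of lysosomes, held 4 matches in its window and did not pass the test.

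In the lysosomal membrane, a calcium channel and an egress protein were higher. Mcoln1 (ENSMUSG00000004567, plus strand of chromosome 8, 3500457 to 3515232) encodes the channel that releases calcium from lysosomes. Its level was 37.8, 63.8 and 39.0 CPM in AE9a-Ddit4+/+ and 136, 111 and 88.3 CPM in AE9a-Ddit4-/- libraries, without overlap. The change on the log2 scale was 1.25 (SE 0.28, edgeR adjusted p = 0.0135). The call was lost without AE9a-Ddit4+/+ library 3 (log2 fold change 1.13, edgeR adjusted p = 0.0543). Cln3, mutated in juvenile Batten disease, rose from 22.2, 26.6 and 21.2 CPM to 57.9, 29.9 and 50.1 CPM (log2 fold change 0.98, SE 0.28, edgeR adjusted p = 0.0356). AE9a-Ddit4-/- library 2 lay close to the AE9a-Ddit4+/+ libraries, and the call was lost without AE9a-Ddit4+/+ library 1 or 3 or AE9a-Ddit4-/- library 1 or 3 (log2 fold changes 0.78 to 0.94, edgeR adjusted p = 0.101 to 0.113) and with library totals alone as scaling (log2 fold change 0.93, edgeR adjusted p = 0.0559). Cln3 overlaps Apobr on the opposite strand (log2 fold change 0.88, edgeR adjusted p = 0.098), and whether reads were counted by strand is not given in the sources used here, so part of its counts may stem from Apobr.

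The structural glycoproteins and the cholesterol exporters did not pass the test. Lamp1 was at 347 to 491 against 285 to 356 CPM (log2 fold change -0.33, SE 0.20) and Lamp2 at 119 to 206 against 158 to 199 CPM (log2 fold change 0.13, SE 0.24). Of the pair that moves cholesterol out of lysosomes, the membrane protein gene Npc1 was at 19.8 to 43.5 against 34.5 to 54.3 CPM (log2 fold change 0.69, SE 0.34), while the gene of its soluble partner Npc2 was at 220.3, 198 and 174 against 142, 121 and 146 CPM. The groups did not overlap for Npc2 (log2 fold change -0.53, SE 0.18, edgeR adjusted p = 0.0582), and it passed the threshold with library totals alone as scaling and in DESeq2.

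Of the 12 proteases, the most numerous role group, 3 were higher and 2 lower (41.7% called, against 30.1% of all genes tested). Ctsf (cathepsin F, ENSMUSG00000083282, plus strand of chromosome 19, 4855130 to 4860918), a cysteine protease known for its role in macrophages, was nearly unread in AE9a-Ddit4+/+ cells at 1.36, 0.339 and 0.634 CPM and reached 17.9, 24.3 and 6.22 CPM in AE9a-Ddit4-/- cells. The change on the log2 scale was 4.37 (SE 0.73, edgeR adjusted p = 0.00465), with AE9a-Ddit4-/- library 3 the lowest of its group and still above each AE9a-Ddit4+/+ library. Lgmn (ENSMUSG00000021190, minus strand of chromosome 12, 102394084 to 102439813) encodes legumain, the asparaginyl endopeptidase that cuts cathepsins into their mature forms. It was at 11.8, 14.0 and 5.78 CPM against 42.6, 31.2 and 53.7 CPM, without overlap (log2 fold change 2.02, SE 0.38, edgeR adjusted p = 0.0076).

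Ctsd (cathepsin D, ENSMUSG00000007891, minus strand of chromosome 7, 142375911 to 142388038) is the main aspartic protease of lysosomes. It rose from 508, 376 and 365 CPM to 819.8, 806 and 635 CPM (log2 fold change 0.86, SE 0.21, edgeR adjusted p = 0.0187). The groups stood apart, with AE9a-Ddit4+/+ library 1 nearest to the AE9a-Ddit4-/- libraries. The call was lost without AE9a-Ddit4+/+ library 3 and likewise without AE9a-Ddit4-/- library 1 or 2 (log2 fold changes 0.76 to 0.80, edgeR adjusted p = 0.0578 to 0.0738). The other aspartic cathepsin moved the opposite way. Ctse (cathepsin E, ENSMUSG00000004552, plus strand of chromosome 1, 131638306 to 131675505), an endosomal protease of immune and erythroid cells, was at 85.3, 53.3 and 74.6 CPM against 27.2, 31.2 and 28.3 CPM. It fell by 1.30 on the log2 scale (SE 0.23, edgeR adjusted p = 0.00537), without overlap. Ctse thus moved in the direction of the erythroid markers, and their part in its level was not tested. Ctsz (cathepsin Z, ENSMUSG00000016256, minus strand of chromosome 2), a carboxypeptidase, was at 268, 157 and 194 CPM against 70.6, 104 and 119 CPM and fell by 1.08 on the log2 scale (SE 0.28, edgeR adjusted p = 0.0242). For Ctsz the AE9a-Ddit4+/+ library 2 lay nearest to the other group, and the call was lost without AE9a-Ddit4+/+ library 1 or 3 or AE9a-Ddit4-/- library 1 or 2 (log2 fold changes -1.16 to -0.85, edgeR adjusted p = 0.0572 to 0.0741). Ctsz overlaps Nelfcd on the opposite strand (log2 fold change -0.42, edgeR adjusted p = 0.106), with the same limit of unknown strand use.

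**Figure D2:**
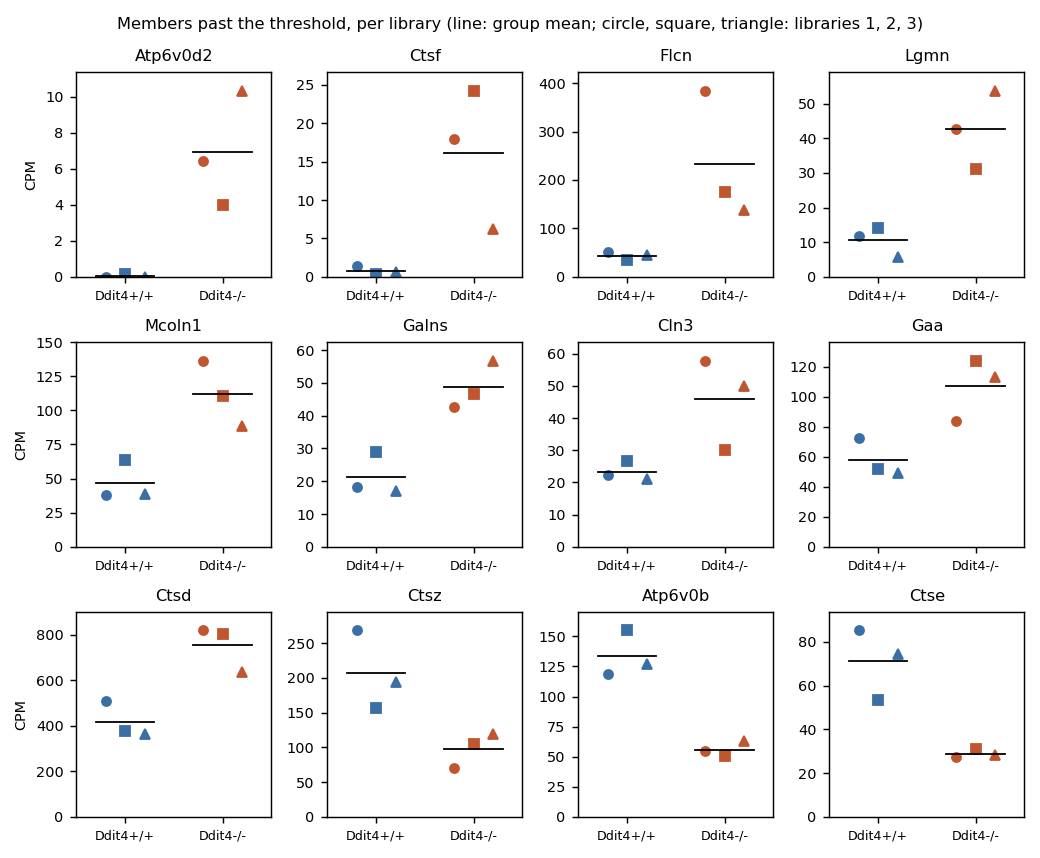
CPM (y axis, each panel with its own scale from 0) of the 12 genes past the threshold in each library, with AE9a-Ddit4+/+ libraries in blue and AE9a-Ddit4-/- libraries in orange. Lines are group means, and circle, square and triangle are libraries 1, 2 and 3. In each of the 12 panels the groups do not overlap.

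The other 7 proteases did not pass the test. Ctsc, which activates the serine proteases of granulocytes, was at 56.1, 36.0 and 19.6 CPM against 66.5, 62.5 and 99.0 CPM (log2 fold change 1.03, SE 0.39, edgeR adjusted p = 0.0842) and passed the threshold in DESeq2 (adjusted p = 0.0417). Ctsa, the carboxypeptidase that protects Glb1 and Neu1, was at 88.9 to 122 against 139 to 171 CPM (log2 fold change 0.47, SE 0.20). For both genes the groups did not overlap. Ctsb, Ctsl, Ctss and Ctsh, cysteine proteases of antigen-presenting cells among others, had log2 fold changes of -0.15, 0.25, 0.20 and -0.40 with overlapping groups. Ctsk, the collagen-degrading enzyme of osteoclasts, stayed at or below 1.80 CPM in every library (log2 fold change 1.90, SE 0.84). Its groups did not overlap either, at 0.190, 0.589 and 0.0773 CPM against 1.80, 0.823 and 0.598 CPM. It passed the threshold without AE9a-Ddit4+/+ library 2 (edgeR adjusted p = 0.0366).

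Levels of different cathepsins were compared per kilobase of exon, as the share of each in their summed level. Ctsd took 37.6, 33.9 and 38.2% of that sum in AE9a-Ddit4+/+ and 61.5, 64.1 and 46.6% in AE9a-Ddit4-/- libraries (means 36.6 ± 2.35% and 57.4 ± 9.48%, SD, n = 3 each). Ctsz took 32.4, 23.1 and 33.1% against 8.64, 13.5 and 14.2% (means 29.5 ± 5.59% and 12.1 ± 3.03%). Ctsd exceeded Ctsz in every library, by least in AE9a-Ddit4+/+ libraries 1 and 3. Neither share overlapped between the groups (exact two-sided permutation p = 0.1, the smallest that 3 against 3 libraries allow). Ctsf, with the largest fold change of the cathepsins among the 45 genes, took 0.03 ± 0.02% and 0.58 ± 0.35% of the sum. Ctss took 10.5 ± 6.12% and 10.3 ± 6.09%.

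**Figure D3:**
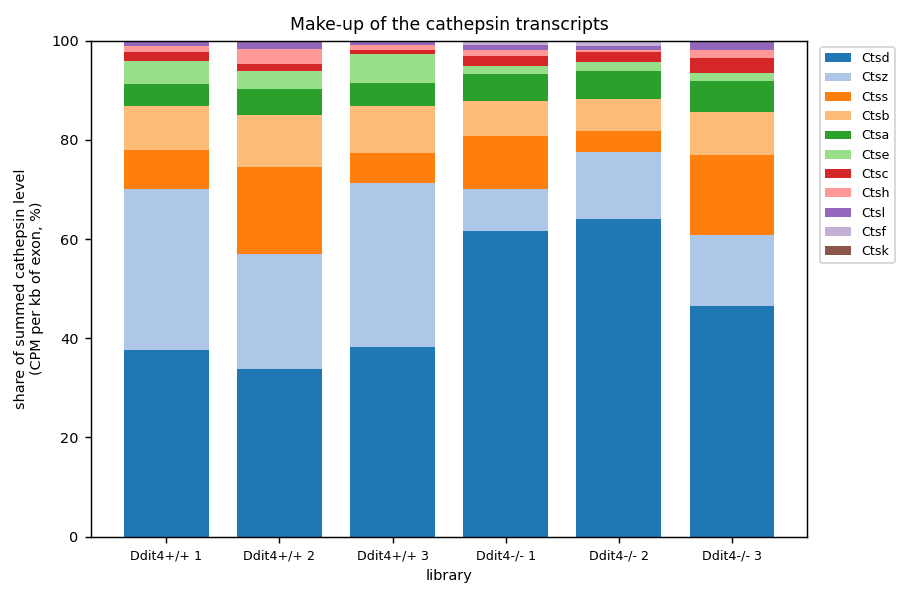
Share of each of 11 cathepsin genes in their summed level (y axis, CPM per kilobase of exon, in %) in each of the 6 libraries (x axis). The share of Ctsd was 33.9 to 38.2% in the AE9a-Ddit4+/+ and 46.6 to 64.1% in the AE9a-Ddit4-/- libraries, and that of Ctsz 23.1 to 33.1% and 8.64 to 14.2%.

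Of the 9 glycosidases and sulfatases, 2 passed the test, both as higher (22.2% called, against 30.1% of all genes tested). The log2 fold changes of the 9 genes were positive (median 0.52), although that of Gusb, the lowest at 0.07, turned negative in 3 of the fits that left out a library. Galns, the sulfatase of keratan sulfate and chondroitin sulfate breakdown (ENSMUSG00000015027, minus strand of chromosome 8, 122578242 to 122611463), rose from 18.2, 28.9 and 16.9 CPM to 42.6, 46.5 and 56.8 CPM (log2 fold change 1.19, SE 0.27, edgeR adjusted p = 0.015). Gaa, the acid alpha-glucosidase that degrades glycogen and is deficient in Pompe disease (ENSMUSG00000025579, plus strand of chromosome 11, 119267887 to 119285454), rose from 72.4, 52.2 and 49.3 CPM to 83.9, 124 and 113 CPM (log2 fold change 0.89, SE 0.24, edgeR adjusted p = 0.0272). The groups were apart for both genes, with a narrow gap for Gaa. The call for Galns was lost without AE9a-Ddit4+/+ library 1 or 3 or AE9a-Ddit4-/- library 3 (log2 fold changes 1.02 to 1.08, edgeR adjusted p = 0.0549 to 0.0591). That for Gaa was lost without AE9a-Ddit4+/+ library 2 or 3 or AE9a-Ddit4-/- library 2 or 3 (log2 fold changes 0.73 to 0.82, edgeR adjusted p = 0.0613 to 0.0985).

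The remaining 7 overlapped between the groups. Sgsh, which removes sulfate from heparan sulfate, was at 2.25, 6.47 and 2.07 CPM against 14.6, 4.90 and 12.5 CPM, with AE9a-Ddit4-/- library 2 inside the AE9a-Ddit4+/+ range (log2 fold change 1.56, SE 0.61, edgeR adjusted p = 0.0905). Glb1, the beta-galactosidase, was at 47.2, 22.5 and 27.9 CPM against 43.7, 79.4 and 62.3 CPM (log2 fold change 0.93, SE 0.34, edgeR adjusted p = 0.0798), and both of these genes passed the threshold in DESeq2. Neu1, Hexa, Naglu, Gla and Gusb, which take off sialic acid, N-acetylhexosamine, N-acetylglucosamine, galactose and glucuronic acid residues, had log2 fold changes of 0.52, 0.43, 0.41, 0.33 and 0.07.

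None of the 3 genes of lipid hydrolysis passed edgeR's test, 1 of them (Lipa) was under an unadjusted p of 0.05, and DESeq2 also called 1. Lipa, the acid lipase of cholesteryl esters and triglycerides, was at 35.9, 31.4 and 27.4 CPM against 21.6, 16.1 and 23.0 CPM, without overlap (log2 fold change -0.64, SE 0.24, edgeR adjusted p = 0.0779). Psap, the precursor of the saposins that present sphingolipids to their enzymes, was among the most abundant of the 45 genes at 581, 657 and 347 CPM against 539.9, 288 and 784 CPM. Its libraries differed more within than between the groups (log2 fold change 0.02, SE 0.39). Asah1, the acid ceramidase, was at 34.2 to 61.8 against 47.7 to 59.3 CPM (log2 fold change 0.16, SE 0.25).

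In the V-ATPase, 9 of 11 genes did not pass the test (18.2% called, against 30.1% of all genes tested). The exceptions were 2 subunits of the V0 part that moved in opposite directions. Atp6v0d2 (ENSMUSG00000028238, minus strand of chromosome 4, 19876841 to 19922605) encodes the d2 form of the subunit that links the stalk to the membrane ring, a form used by osteoclasts and macrophages in place of the ubiquitous d1. It had 0, 12 and 0 counts in AE9a-Ddit4+/+ and 401, 242 and 761 counts in AE9a-Ddit4-/- libraries, or 0, 0.177 and 0 CPM against 6.44, 3.98 and 10.3 CPM. AE9a-Ddit4+/+ library 2 thus carried the whole signal of its group. The change on the log2 scale was 6.80 (SE 1.29, edgeR adjusted p = 0.00771), a 112-fold higher level. With AE9a-Ddit4+/+ library 2 set aside, the AE9a-Ddit4-/- mean of 6.92 CPM was 147 times a floor of 3 counts per library. That ratio rests on the group mean and covers counting error only. The d1 gene Atp6v0d1 was level at 103, 120.2 and 96.6 CPM against 113, 104 and 103 CPM (log2 fold change -0.00368, SE 0.17). Per kilobase of exon, Atp6v0d2 made up 0.03 ± 0.06% of the d transcripts in AE9a-Ddit4+/+ and 4.11 ± 1.92% in AE9a-Ddit4-/- cells (SD, n = 3 each, exact two-sided permutation p = 0.1, the smallest possible), so that d1 remained the main form in every library.

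Atp6v0b (ENSMUSG00000033379, minus strand of chromosome 4, 117884326 to 117887333) encodes the c'' proteolipid of the membrane ring that carries the protons. It was at 119, 155 and 127 CPM in AE9a-Ddit4+/+ and 54.4, 50.7 and 62.6 CPM in AE9a-Ddit4-/- libraries. It fell by 1.26 on the log2 scale (SE 0.19, edgeR adjusted p = 0.00308), with a wide gap between the groups. Atp6v0c, which encodes the more abundant c proteolipid of the same ring, was at 142 to 194 against 169 to 193 CPM (log2 fold change 0.12, SE 0.18). None of the 5 V1 genes passed edgeR's test, 2 (Atp6v1a and Atp6v1d) were under an unadjusted p of 0.05, and DESeq2 called 1. The groups did not overlap in 4 of them, higher for Atp6v1a, Atp6v1d and Atp6v1h and lower for Atp6v1b2, against 50.1% of all genes tested. Atp6v1a, the catalytic subunit, was at 62.2 to 87.4 against 101 to 116 CPM without overlap (log2 fold change 0.48, SE 0.20, edgeR adjusted p = 0.103). Atp6v1d of the central stalk was at 56.0 to 58.9 against 72.2 to 84.8 CPM (log2 fold change 0.43, SE 0.17, edgeR adjusted p = 0.0919) and was the gene called by DESeq2 (adjusted p = 0.0256). Atp6v1h, Atp6v1c1, Atp6ap1, Atp6v0a1 and Atp6v1b2 had log2 fold changes of 0.26, 0.24, 0.09, -0.09 and -0.30, so that the 9 genes not called lay between -0.30 and 0.48.

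The other pump subunits were read from a further list of 14 genes, of which 8 were tested. Atp6v0e, a small V0 subunit, was lower (log2 fold change -0.65, SE 0.19, edgeR adjusted p = 0.0386), and none was higher. That call was lost without any library but AE9a-Ddit4+/+ library 2, and the edgeR adjusted p reached 0.12 over all alternatives. Of the forms of the V0 a subunit, which send the pump to different membranes, Tcirg1 (a3, the form of osteoclasts and secretory lysosomes) was at 64.5, 135 and 65.8 CPM against 187, 99.9 and 165 CPM (log2 fold change 0.77, SE 0.36, edgeR adjusted p = 0.151). Its share of the a transcripts per kilobase was 45.5 ± 5.98% against 60.4 ± 9.46% with overlapping groups (exact two-sided permutation p = 0.2). Atp6v1b1, Atp6v1e2 and Atp6v1g3, forms of kidney, testis and epithelia, had 0 counts in all 6 libraries.

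Since d2, cathepsin F, legumain and cathepsin D are abundant in macrophages and d2 also in osteoclasts, markers of both cell types were read beside these results. These genes were picked from the higher ones. Of the other cathepsins, Ctse and Ctsz were lower (log2 fold changes -1.30 and -1.08) and the rest did not pass the test. Ctsb, Ctsl, Ctss and Ctsh, of antigen-presenting cells among others, had log2 fold changes of -0.15, 0.25, 0.20 and -0.40. Of 15 macrophage markers, 14 were tested, 9 were higher in AE9a-Ddit4-/- cells and 0 lower. Of all genes tested, 19.4% were higher and 10.7% lower. The median log2 fold change of the markers was 2.88, and their summed level was 56.3 to 114 CPM in AE9a-Ddit4+/+ and 175 to 404 CPM in AE9a-Ddit4-/- libraries. The complement gene C1qc (log2 fold change 4.78, SE 0.53, edgeR adjusted p = 0.0011) and the mannose receptor gene Mrc1 (log2 fold change 5.24, SE 0.83, edgeR adjusted p = 0.00386) were among the higher ones. Csf1r, the receptor that defines the lineage, was at 37.1, 55.0 and 20.9 CPM against 45.7, 22.2 and 84.7 CPM (log2 fold change 0.43, SE 0.52, edgeR adjusted p = 0.565), Adgre1 did not pass the test either, and Marco had 0 counts. Of 7 osteoclast markers, 4 were too low to be tested and the other 3 did not pass (Nfatc1 log2 fold change 0.51, edgeR adjusted p = 0.127). The part of macrophage RNA in the changes of the lysosomal genes was not tested.

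Order of the libraries was compared with that of Csf1r, a comparison chosen after the values had been seen. Csf1r was highest in library 2 and lowest in library 3 among the AE9a-Ddit4+/+ libraries, and highest in library 3 and lowest in library 2 among the AE9a-Ddit4-/- libraries. Summed macrophage, neutrophil and B cell markers each had this order too, so it is not particular to 1 cell type. For the neutrophil markers the sums were 8191, 11363 and 7076 CPM in AE9a-Ddit4+/+ and 3486, 1563 and 4893 CPM in AE9a-Ddit4-/- libraries 1, 2 and 3. The same order was found in 6 of the 45 genes, Lamp1, Ctsh, Ctsl, Ctss, Lgmn and Psap, and in 3.65% of all genes tested (2.96% of those with an average log2 CPM above 4). Of the 12 genes past the threshold, Lgmn had it, and Atp6v0d2 had it but for the tie of AE9a-Ddit4+/+ libraries 1 and 3 at 0. Within the AE9a-Ddit4-/- libraries alone, Lgmn, Atp6v0d2 and Atp6v0b followed Csf1r (3 of 12, against 15.2% of all genes tested). Within the AE9a-Ddit4+/+ libraries alone, Lgmn, Cln3 and Galns did (3 of 12, against 18.1%).

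**Figure D4:**
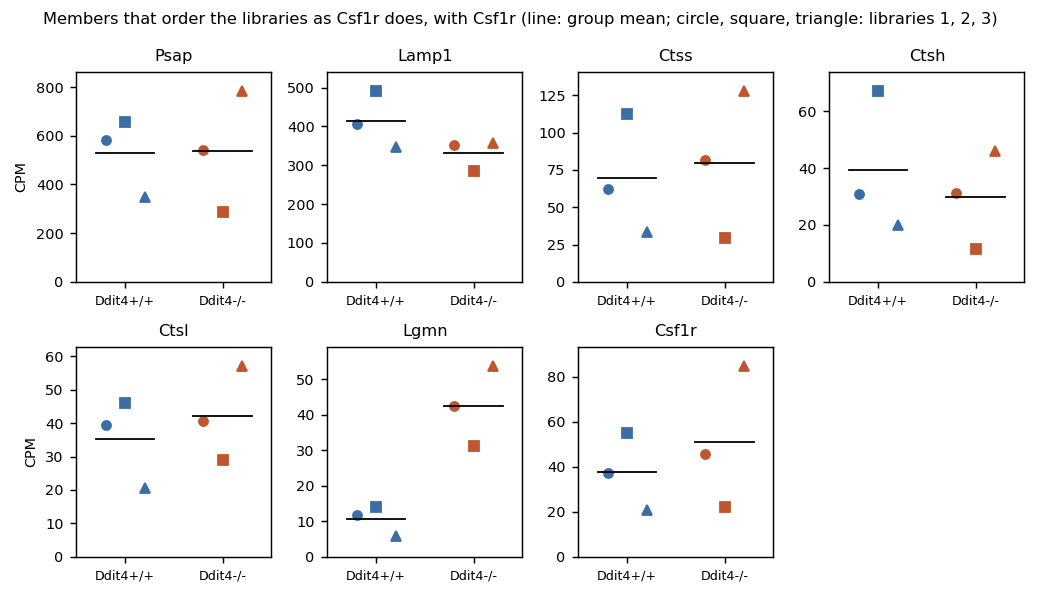
CPM (y axis, each panel with its own scale from 0) of the 6 genes that order the libraries as Csf1r does, and of Csf1r. Circle, square and triangle are libraries 1, 2 and 3 of each group (x axis), and lines are group means. For 5 of the 6 genes, all but Lgmn, the AE9a-Ddit4+/+ libraries alone span more than the difference of the group means.

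The further lysosomal genes, 83 on 5 lists, were read to place these results. Of the 75 tested, 11 rose and 7 fell in AE9a-Ddit4-/- cells (24.0% called), against 26.7% of the 45 genes and 30.1% of all genes tested. Among 27 other hydrolases, 6 were higher and 2 lower. The largest changes were those of Ctsw, a cathepsin of cytotoxic T and NK cells, at 0.823 to 1.28 against 93.5 to 96.9 CPM (log2 fold change 6.55, SE 0.27), and of Galc, the galactosylceramidase, at 3.40 to 10.3 against 36.9 to 64.1 CPM (log2 fold change 2.91, SE 0.45, edgeR adjusted p = 0.00351). Arsa and Pla2g15 followed with log2 fold changes of 1.86 each. Of 8 tested T and NK cell markers, 7 were higher in AE9a-Ddit4-/- libraries, against 19.4% of all genes tested. The summed level was 10.1 to 47.9 against 77.8 to 106 CPM, and the part of these cells in the Ctsw level was not tested.

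Among the other lysosomal membrane genes, Cd63, a tetraspanin of lysosomes and platelet granules, was higher at 24.3 to 73.5 against 530.4 to 895 CPM (log2 fold change 3.69, SE 0.45, edgeR adjusted p = 0.0015). Of 11 tested megakaryocyte markers, 8 were higher in the same libraries and 1, Vwf, was lower (log2 fold change -2.06, edgeR adjusted p = 0.0327), against 19.4% higher and 10.7% lower of all genes tested. The part of these cells in the Cd63 level was not tested. Mcoln2, a channel gene related to Mcoln1, was higher as well, at 0.0773 to 0.680 against 13.5 to 18.9 CPM (log2 fold change 5.47, SE 0.74, edgeR adjusted p = 0.00216). Of the mannose 6-phosphate sorting genes, which bring new hydrolases to lysosomes, the receptor gene M6pr was lower at 339, 235 and 297 CPM against 83.1, 118 and 109 CPM (log2 fold change -1.49, SE 0.22, edgeR adjusted p = 0.00299). The second receptor gene, Igf2r, was at 0.974 to 2.62 against 2.58 to 7.93 CPM and did not pass the test (log2 fold change 1.43, SE 0.57). A list of 16 genes covered those that dock mTORC1 on lysosomes or control it there, and also held the transcription factor gene Tfec. Lamtor1 alone was called, as lower (log2 fold change -0.59, SE 0.19, edgeR adjusted p = 0.046). This is 6.25% of the list, against 30.1% of all genes tested. That call was lost without any of the 6 libraries (edgeR adjusted p up to 0.124 over all alternatives).

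**Figure D5:**
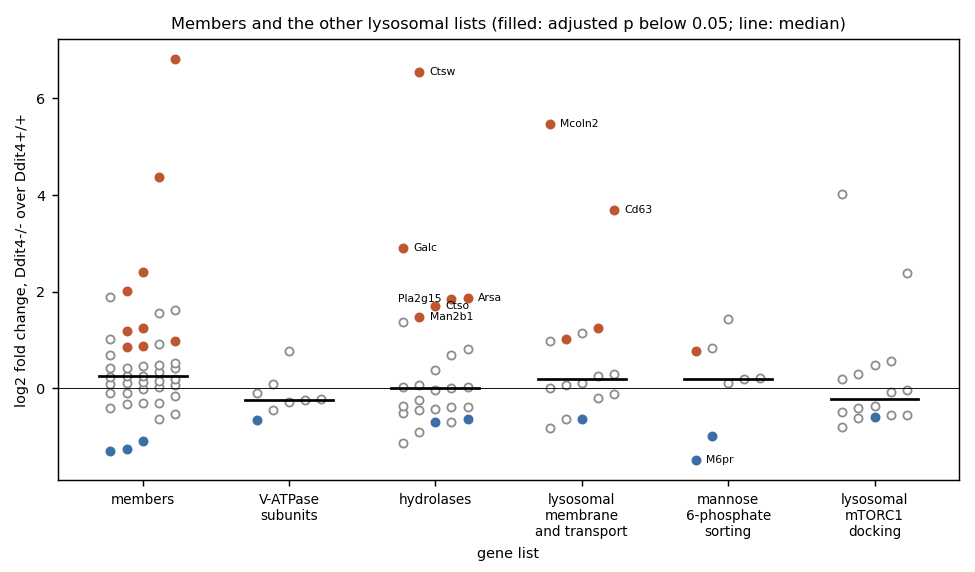
Log2 fold change of AE9a-Ddit4-/- over AE9a-Ddit4+/+ (y axis) for the 45 genes and for the tested genes of 5 further lysosomal lists (x axis). Filled points are past an adjusted p of 0.05, lines are list medians, and gene names mark called genes of the further lists with a log2 fold change over 1.4 in size. The medians lie between -0.23 and 0.26.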

How the data were processed

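RNA-seq of AE9a-Ddit4+/+ (3 libraries) and AE9a-Ddit4-/- (3 libraries) leukemia cells was analysed. The authors deposited a table of raw counts per Ensembl gene with a column for each library. The submitters' processing notes name GRCm38 (mm10), while the aligner, counting tool and use of strand are not given in the sources used here. The labels name an mRNA library kit and the study's methods an rRNA-depletion kit. In each library the values 4, 8 and 12 outnumbered 2, 6 and 10 by 1.40 to 1.62 times, so that some fragments may have been counted repeatedly. Groups and numbers came from the sample titles. Of 55421 identifiers, 55240 (99.7%) matched GENCODE M21, which gave positions and merged exon lengths, and 27 symbols turned into dates were restored.

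Low genes were removed with filterByExpr in edgeR 4.0.16 (R 4.3.3), libraries were scaled by TMM (factors 0.921 to 1.05), and genotype was tested over 18375 genes with the robust quasi-likelihood F-test and Benjamini-Hochberg adjustment. SE is the size of the log2 fold change over the root of F. CPM used TMM-scaled totals. A floor of 3 counts per library was used, and such floors cover counting error only, because reads lacking molecular identifiers may repeat a molecule. The 45 genes and all lists were chosen with earlier results of these data known. The named genes are the 45, the called genes of further lists with the largest changes (up to 4 a list) and those the text counts, with the genes near Flcn added after values were seen. Alternatives were 3 other scalings, 2 other filters, DESeq2 1.42.0, counts divided by 4, a threshold of 0.01, the replicate number as a block, exon length of the longest transcript, and each library left out.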

Additional observations from a re-analysis of the deposited data

How the results depend on the processing

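Of the 12 genes past the threshold, 6 (Atp6v0d2, Ctsf, Flcn, Lgmn, Ctse and Atp6v0b) were past it under every alternative in which they were tested, and none of the 12 changed sign. Atp6v0d2 was not tested with at least 10 counts in every library. Of 627 values of single genes under alternatives, 567 kept direction and side of the threshold, 24 fell below it, 12 passed it and 24 changed sign. DESeq2's Wald test called 7097 genes in all (4348 higher, 2749 lower). Among them were 13 of the 45 genes as higher and 5 as lower, with 4 glycosidases and sulfatases and 1 gene of lipid hydrolysis. A minimum of 10 counts in every library left 2341 genes higher and 1 called V-ATPase gene, since fewer genes were tested. At an adjusted p below 0.01 there were 2676 genes (1964 higher, 712 lower), 4 of the 45 genes higher, 0 genes of membrane and lipid egress, 3 proteases and 0 glycosidases and sulfatases.

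Replicate numbers are shared between the groups, but same-numbered libraries did not deviate together (correlations of -0.26, -0.30 and -0.03 across genes), and none correlated best with its own number. With the replicate number as a block, 2964 genes were called (2177 higher, 787 lower), among them 6 of the 45 genes higher and 2 lower, 1 gene of membrane and lipid egress and 0 glycosidases and sulfatases. The calls of Cln3, Ctsz, Gaa and Galns were the ones lost (edgeR adjusted p = 0.0534 to 0.121). The cause was not tested.

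Leaving out each library in turn gave 3840 to 6021 genes in all, 2683 to 3943 higher and 1089 to 2078 lower. Of the 45 genes, 4 to 11 were then higher and 2 to 3 lower, with the fewest higher without AE9a-Ddit4+/+ library 3. By role, 0 to 3 genes of membrane and lipid egress, 3 to 6 proteases, 0 to 2 glycosidases and sulfatases and 2 V-ATPase genes were called. The median log2 fold change of the 45 genes stayed between 0.14 and 0.39. The difference in share ran from 17.5 to 26.3 percentage points for Ctsd, from 10.7 to 20.0 for Tcirg1 and from 3.02 to 4.90 for Atp6v0d2.

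Signs changed only for genes that did not pass the test. Atp6v0d1 turned to 0.011 with DESeq2 size factors and in DESeq2, 0.00571 with totals without mitochondrial genes, 0.0115 with counts divided by 4, 0.0613 with the minimum of 10 counts and 0.00119 with the block. Psap turned to -0.0200 with library totals alone, -0.00936 without a filter and -0.0449 with the block. With each library left out in turn, log2 fold changes ran from -0.0741 to 0.0906 for Atp6v0d1, from -0.40 to 0.29 for Psap, from -0.21 to 0.0864 for Tfeb, from -0.11 to 0.27 for Gusb, from -0.92 to 0.23 for Ctsh, from -0.0449 to 0.36 for Lamp2, from -0.0677 to 0.49 for Ctsl, from -0.0439 to 0.37 for Asah1 and from -0.37 to 0.73 for Ctss. With 3 libraries a group and a wide spread within groups, small differences in these genes may go unseen.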

Other observations

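Other hydrolase genes that were higher in AE9a-Ddit4-/- cells were Man2b1, the lysosomal alpha-mannosidase, at 167, 311 and 166 CPM in AE9a-Ddit4+/+ against 711, 485 and 586 CPM in AE9a-Ddit4-/- (log2 fold change 1.47, SE 0.30), and Ctso (cathepsin O), at 8.15, 13.7 and 11.1 against 45.6, 32.5 and 29.8 CPM (log2 fold change 1.71, SE 0.29). Both stayed past the threshold under every alternative in which they were tested. Lower were Smpd1, the acid sphingomyelinase, and Plbd2, with log2 fold changes of -0.70 and -0.64. Among transporters, Abca2 was higher (log2 fold change 1.25, SE 0.20), and the abundant membrane protein gene Laptm5 was lower at 1036, 1186 and 1200.3 against 767, 677 and 770.4 CPM (log2 fold change -0.63, SE 0.17). Of the Gga adaptors, which sort mannose 6-phosphate receptors at the Golgi, Gga1 was higher and Gga2 lower (log2 fold changes 0.78 and -0.97, edgeR adjusted p = 0.0108 and 0.0365).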
